A study of Mus musculus with 2 samples.

Results

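The genes described here are 10 secreted or membrane-tethered signals to myeloid and lymphoid cells: the CXC chemokines Cxcl1, Cxcl5, Cxcl10 and Cxcl16, the CC chemokines Ccl2 and Ccl20, the CX3C chemokine Cx3cl1, and the colony-stimulating factors Csf1, Csf2 and Csf3. They were taken by symbol from the 33696 features of the count matrix, and all 10 were found. The cells were KPCY 6419c5, a mouse pancreatic ductal adenocarcinoma cell line, carrying the lineage recorder BASELINE and given Cas12a-ABE, an adenine base editor built on Cas12a. Clones 76 and 84 were each grown from 1 sorted cell, kept for 19 days of editing, mixed in equal numbers and sequenced as 1 droplet library with the 10x 3′ v4 chemistry. A second sample, of clones 1, 32, 33, 52 and 76 also labelled with 19 days of editing, is not analysed here. All cells compared therefore share the line, the editor, the culture time and the library.

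Transcripts were counted as unique molecular identifiers (UMIs), so that 1 UMI stands for 1 captured molecule. The cell filter asked for 2000 UMIs and 1000 detected genes or more and for no more than 15% of UMIs from mitochondrial genes, which left 21361 of 22178 barcodes. Kept cells were put into class A or class B by marker genes that are not among the 10. Class A cells had at least 2 UMIs of Pde10a, Plcb1, Galnt18, Arhgap15 and Ceacam1 together and at least 3 times as many as of the other set, and class B cells had the same for S100a7a, Rgs20, Hs6st2, Ccbe1, Ctse and Mal. The rule gave 7816 A cells, 8936 B cells and 4609 cells in neither class. The classes were not mapped to clones, because no label ties a barcode to a clone. Median depth was 4699.5 UMIs in A cells and 5440.5 in B cells, and the median mitochondrial share was 3.19% in A and 1.89% in B. Both classes expressed keratins of ductal epithelium: Krt18 stood at 1083 CPM, that is UMIs per 1000000 UMIs of the class, in A and at 3019 CPM in B. Of 7 epithelial markers 6 reached 10 CPM in a class, with Krt7 25.4-fold higher in B and Epcam low in B (31.8 CPM in A, 3.16 CPM in B). Of 11 macrophage and monocyte markers, C1qa, C1qb and Tyrobp had no UMI in either class. The leukocyte marker Ptprc had 4 UMIs in all A cells and 2 in all B cells, and the 11 markers together stood at 38.9 CPM in A and 23.2 CPM in B, nearly all of it Cd14 (36.8 and 21.8 CPM). The 9 lymphocyte markers together stood at 0.720 CPM in A and 0.512 CPM in B, and the 7 neutrophil markers at 11.3 CPM and 15.4 CPM. That last sum was mostly Ly6g in A (10.7 CPM, against 2.50 CPM in B) and S100a8 in B (9.66 CPM, against 0.348 CPM in A), and S100a9 stood at 0.0497 CPM in A and 2.84 CPM in B. The 9 fibroblast markers stood at 146 CPM in A and 7.49 CPM in B, nearly all of it the contractile gene Acta2 (144 and 5.89 CPM), and 3 of them had no UMI. The 6 endothelial markers stood at 36.9 CPM in A and 8.70 CPM in B, mostly Egfl7 (32.6 and 7.75 CPM), and 2 had no UMI. The part of these markers in the values of the 10 genes was not tested.

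Chemokines are small proteins that guide white blood cells along a gradient by way of G protein-coupled receptors, and tumour epithelium is a known source of them. In pancreatic ductal adenocarcinoma, ligands of CXCR2 draw neutrophils, ligands of CCR2 draw monocytes, and colony-stimulating factors drive the production, survival and differentiation of macrophages and granulocytes. Many of these genes are short-lived transcripts switched on by the factor NF-kB after signals such as TNF or IL-1.

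The upstream sequences of Cxcl1, Cxcl10, Ccl20 and Csf2 are shown because 1 B cell of the library held UMIs of all 4. They are the 250 bases before the annotated start, written 5′ to 3′ along the gene, from RefSeq on build GRCm38.p6, which is not the build of the counts. RefSeq promoters were found for 6 of the 10 genes. Capitals mark matches, on either strand, to the NF-kB consensus, to the AP-1 motif TGANTCA or to the interferon-response motif GAAANNGAAA.
Cxcl1 (chr5:90890995-90891244, plus strand): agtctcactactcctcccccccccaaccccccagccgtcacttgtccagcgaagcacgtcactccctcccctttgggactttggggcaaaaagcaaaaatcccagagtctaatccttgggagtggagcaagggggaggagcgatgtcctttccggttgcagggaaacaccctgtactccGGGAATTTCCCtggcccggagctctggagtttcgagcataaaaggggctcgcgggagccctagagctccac
Cxcl10 (chr5:92348890-92349139, minus strand): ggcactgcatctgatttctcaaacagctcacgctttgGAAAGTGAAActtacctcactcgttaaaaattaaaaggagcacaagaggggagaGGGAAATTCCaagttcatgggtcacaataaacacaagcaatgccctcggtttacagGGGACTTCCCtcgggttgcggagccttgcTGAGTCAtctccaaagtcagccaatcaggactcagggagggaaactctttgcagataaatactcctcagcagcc
Ccl20 (chr1:83116516-83116765, plus strand): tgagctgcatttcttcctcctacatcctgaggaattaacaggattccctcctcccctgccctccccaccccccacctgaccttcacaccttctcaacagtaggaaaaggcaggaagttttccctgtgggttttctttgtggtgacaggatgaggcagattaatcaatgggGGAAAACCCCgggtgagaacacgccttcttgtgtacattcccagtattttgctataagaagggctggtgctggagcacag
Csf2 (chr11:54249900-54250149, minus strand): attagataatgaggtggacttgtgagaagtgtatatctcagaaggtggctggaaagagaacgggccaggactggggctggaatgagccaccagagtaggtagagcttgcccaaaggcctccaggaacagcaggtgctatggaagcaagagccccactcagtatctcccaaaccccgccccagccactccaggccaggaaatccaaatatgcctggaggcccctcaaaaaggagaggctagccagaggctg
The capitals in Cxcl1 are 2 overlapping NF-kB matches that span 71 to 61 bases before the start. Cxcl10 held NF-kB matches that begin 159 and 103 bases before the start, an AP-1 match that begins 74 bases before it and an interferon-response match that begins 213 bases before it. Ccl20 had 1 NF-kB match, which begins 80 bases before the start. Among the others, Csf1 had 1 NF-kB match, which begins 154 bases before the start, while Csf2 and Cx3cl1 had no match of the 3 kinds in this window. No matches overlapped except the pair in Cxcl1. Of 32851 RefSeq promoters cut to the same length, 3.90% held an NF-kB match, 6.75% the AP-1 motif and 2.98% the interferon-response motif. A match is a description of letters, not of binding.

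Levels are given as CPM, from UMIs summed over all cells of a class. Values in parentheses are exact 95% Poisson limits for a level, exact Clopper-Pearson limits for a share of cells, and exact conditional binomial limits for a ratio. With 1 library there is no replicate, so no test between classes was possible, and all limits cover counting error only. A 3′ library gives about 1 tag per molecule, so levels of different genes are compared as tags, without scaling by length. The 10 genes together stood at 422 CPM (415 to 428) in A cells and 187 CPM (183 to 191) in B cells. Cxcl5 made up most of the first sum and Cxcl16 most of the second. After each cell was thinned to 3000 UMIs, 57.5% of A cells and 37.8% of B cells held at least 1 UMI of any of the 10. That step left out 410 A cells and 109 B cells with fewer UMIs.

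**Figure D1:**
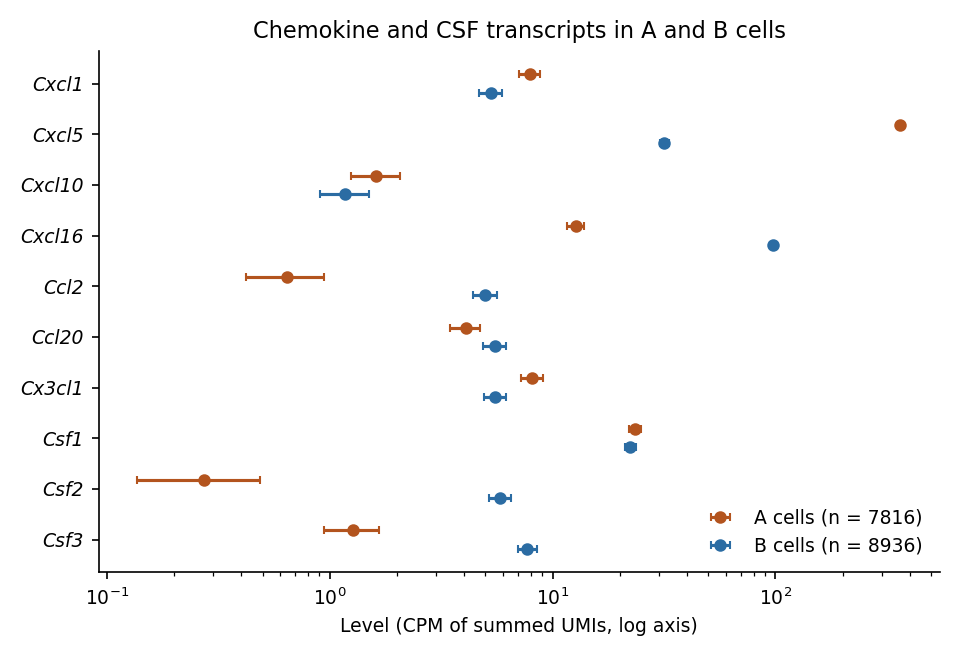
Level of each of the 10 genes in A cells (orange, n = 7816) and B cells (blue, n = 8936), as CPM of summed UMIs on a log axis, with bars for exact 95% Poisson limits. Cxcl5 lies to the right in A cells, Cxcl16, Ccl2, Csf2 and Csf3 lie to the right in B cells, and the bars of Cxcl10 and of Csf1 overlap between the classes.

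Cxcl5, a neutrophil attractant that acts through CXCR2, was the highest of the 10 in A cells, with 14571 UMIs and 362 CPM (356 to 368). In B cells it had 1674 UMIs and 31.7 CPM (30.2 to 33.3). The level in A was 11.4-fold that in B (10.8 to 12.0), or 3.51 on the log2 scale. At least 1 Cxcl5 UMI was present in 62.6% of A cells and 12.8% of B cells as counted, and in 50.4% and 6.92% after thinning. Counts overlapped between the classes cell by cell: 37.4% of A cells had no Cxcl5 UMI, and 28 B cells had 5 or more. At these levels and depths a cell with no UMI may still hold the transcript, here and for the genes below. Of those 28 B cells, 9 were marked as likely doublets by the program Scrublet, against 2.33% of all B cells. Without marked barcodes the B level was 28.4 CPM and the log2 ratio 3.69.

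Cxcl1, the other neutrophil attractant of this receptor among the 10, differed far less between the classes. It stood at 7.90 CPM (7.05 to 8.81) in A and 5.29 CPM (4.68 to 5.95) in B, a ratio of 1.49 (1.27 to 1.76). A Cxcl1 UMI was found in 3.33% of A cells and 2.54% of B cells as counted, and in 2.04% and 1.31% after thinning. Cxcl1 and Cxcl5 lie in the same run of CXC genes on chromosome 5. In RefSeq's order that run is Cxcl5, Ppbp, Pf4, Cxcl3, Cxcl15, Cxcl1 and Cxcl2. Cxcl3, also a CXCR2 ligand, followed Cxcl5 with 43.0 CPM in A and 7.37 CPM in B, a 5.83-fold ratio (5.22 to 6.53). Cxcl15 had 82 UMIs in A and 6 in B, and Pf4 had 16 and 2. Ppbp, which lies between Cxcl5 and Pf4, had 33 and 24 UMIs, and Cxcl2 had 16 and 11. The ratio therefore ran unevenly along the run, from 1.49-fold for Cxcl1 to 17.9-fold for Cxcl15 (7.88 to 50.2).

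Cxcl10, an interferon-induced attractant of T cells that acts through CXCR3, was rare in both classes, at 1.61 CPM (1.25 to 2.06) in A and 1.17 CPM (0.901 to 1.51) in B. The 65 UMIs in class A lay in 22 cells and the 62 UMIs in class B in 56 cells. In A, 4 cells with 20, 11, 7 and 5 UMIs held 66.2% of the total, while no B cell had more than 4. Art3 overlaps Cxcl10 on the other strand in GENCODE M21. Ccl20, a ligand of CCR6 on dendritic cells and lymphocytes, stood at 4.07 CPM (3.47 to 4.75) in A and 5.50 CPM (4.88 to 6.17) in B, which is 1.35-fold higher in B (1.11 to 1.64), or -0.43 as the log2 ratio of A over B. That ratio was -0.20 in thinned cells, -0.85 with the strict cell filter and -1.05 with the top 1% of cells by Ccl20 left out. The last is past the 2-fold limit, but a Ccl20 UMI was present in 1.51% of A cells and 2.20% of B cells as counted. Leaving out 1% thus takes a larger part of the positive cells in A, and nothing is read from that value.

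Ccl2, the main ligand of CCR2 on monocytes, had 26 UMIs in A cells (0.646 CPM) and 263 UMIs in B cells (4.98 CPM), and was 7.72-fold higher in B (5.15 to 12.0). A Ccl2 UMI was present in 1.71% of B cells as counted (0.940% after thinning), and 7 B cells with 5 to 16 UMIs carried 23.6% of the class total. Of the genes that follow Ccl2 on chromosome 11, Ccl7 had 2 UMIs in A and 18 in B, and Ccl8 had 2 and 34. Ccl11 and Ccl12 had none in either class, where a count of 0 allows up to 0.0745 CPM in A and 0.0568 CPM in B. The few UMIs of the run were thus mostly in B cells, as those of Ccl2 were.

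**Figure D2:**
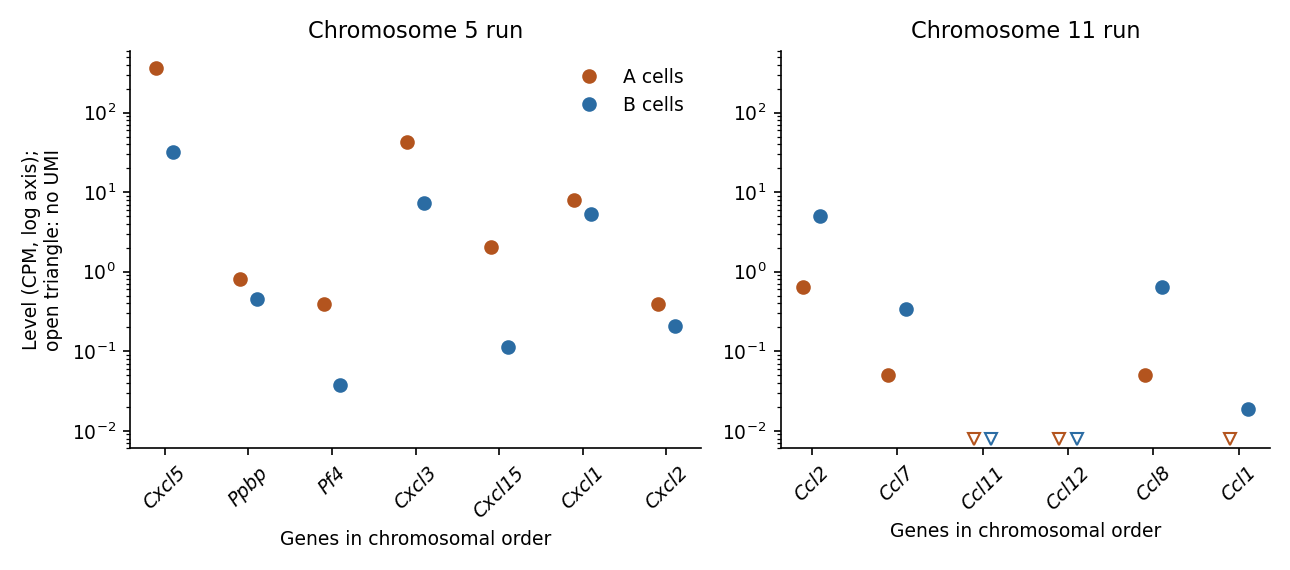
Levels (CPM, log axis) of the chemokine genes of 2 chromosomal runs in their RefSeq order, in A cells (orange) and B cells (blue), with open triangles for genes with no UMI. In the chromosome 5 run the gap between classes is wide at Cxcl5, Pf4, Cxcl3 and Cxcl15 and narrow at Ppbp, Cxcl1 and Cxcl2, and in the chromosome 11 run Ccl2, Ccl7 and Ccl8 are higher in B cells.

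Cxcl16 and Cx3cl1 are made as membrane-anchored chemokines and released by the proteases Adam10 and Adam17. Cxcl16, whose receptor is CXCR6, was the highest of the 10 in B cells, at 97.0 CPM (94.4 to 99.7) against 12.7 CPM (11.6 to 13.9) in A, which is 7.63-fold higher in B (6.97 to 8.37). A UMI of it was present in 38.2% of B cells and 6.04% of A cells as counted, and in 23.6% and 3.44% after thinning. Cx3cl1, the ligand of CX3CR1, stood at 8.09 CPM (7.24 to 9.02) in A and 5.51 CPM (4.90 to 6.19) in B, a ratio of 1.47 (1.25 to 1.73). The 2 tethered chemokines thus pointed in opposite directions. Of 10 sheddases and mRNA decay factors, 9 reached 10 CPM in a class. Adam17 (24.4 and 9.85 CPM) and Zfp36l1 (54.6 and 26.7 CPM), which destabilises AU-rich transcripts, were at least 2-fold higher in A, and Rhbdf2 (5.98 and 13.2 CPM), a partner of Adam17, at least 2-fold higher in B. Zmynd15 overlaps Cxcl16 on the other strand.

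Of the 3 colony-stimulating factors, 1 was level between the classes and 2 were higher in B. Csf1, the macrophage growth factor, stood at 23.4 CPM (21.9 to 24.96) in A and 22.3 CPM (21.1 to 23.6) in B, and its ratio of 1.05 had limits from 0.962 to 1.14. Csf2, which encodes GM-CSF, had 11 UMIs in A cells, each in a different cell, and 306 UMIs in 242 B cells. Its levels were 0.273 CPM (0.136 to 0.489) in A and 5.80 CPM (5.17 to 6.49) in B, so that it was 21.2-fold higher in B (11.7 to 43.0), the largest ratio of the 10. Csf3, which encodes the granulocyte factor G-CSF, had 51 UMIs in A (1.27 CPM) and 407 in B (7.71 CPM), 6.09-fold higher in B (4.54 to 8.32). In both classes no cell had more than 2 Csf3 UMIs. Il34, which encodes the other ligand of the Csf1 receptor, stood at 8.24 CPM in A and 39.5 CPM in B, 4.80-fold higher in B (4.27 to 5.40). Gm12223 overlaps Csf2 and Gm17268 overlaps Ccl2 on the other strand.

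In order of level, A cells had Cxcl5, Csf1 and Cxcl16, then Cx3cl1 and Cxcl1 with overlapping limits, then Ccl20, and last Cxcl10, Csf3, Ccl2 and Csf2, each of whose limits overlapped with those of the next. B cells had Cxcl16, Cxcl5 and Csf1, then Csf3, then Csf2, Cx3cl1, Ccl20, Cxcl1 and Ccl2, each of whose limits overlapped with those of the next, and Cxcl10 last. Cxcl5, first in A, was the second in B, and Cxcl16, first in B, was the third in A. Leaving out the cells with the most UMIs of a gene must lower its level, and the more so for genes found in few cells. With the top 1% of cells by each gene left out, Cxcl1 stood at 4.57 CPM in A and 2.65 CPM in B, Ccl20 at 1.004 and 2.07 CPM, and in B Ccl2 at 1.23 CPM and Csf2 at 2.94 CPM. No UMI was then left of Cxcl10 in either class, or of Ccl2, Csf2 and Csf3 in A. Each of these was present in under 1% of the cells of that class as counted, so this outcome was fixed in advance. Nothing is read from it. The 51 Csf3 UMIs in A, for example, lay in 51 cells.

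A gene was counted as called where its levels differed at least 2-fold and it reached a minimum level in either class. With a minimum of 10 CPM, 3 of the 10 could be counted: Cxcl5 was called higher in A, where the background over 8800 features was 10.3%, and Cxcl16 higher in B, where it was 7.26%. With a minimum of 1 CPM, chosen after the values were seen so that all 10 entered, 1 of 10 was called higher in A against 14.8% of 12666 features, and 4 of 10 (Cxcl16, Ccl2, Csf2 and Csf3) higher in B against 10.2%. Ccl2 and Csf2 reached that minimum in B cells alone, so nothing is read from the 4. The median log2 ratio of A over B was -0.18 over the 10 and 0.20 over all features of that minimum.

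RNA set free from lysed cells can place UMIs in cells that do not make a transcript. Outside the marker rule, the 6 features of at least 50 CPM with the most extreme ratios kept, in the class where they were low, between 1.39% (Il18r1) and 2.64% (Krt14) of their level in the other class. Among the 5 genes called, this share was 4.71% for Csf2, 8.77% for Cxcl5, 13.0% for Ccl2, 13.1% for Cxcl16 and 16.4% for Csf3. That of Csf2 rested on 11 UMIs in A cells. For Gm5886, the most extreme feature in the direction of A, 75.0% of A cells and 8.68% of B cells had a UMI as counted. That was at the median depths given above. Gm5886 stood at 1618 CPM in A. The part of free RNA in the 12.8% of B cells with Cxcl5 was not tested.

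Unevenness among cells was read from the Fano factor, the variance of the thinned counts divided by their mean, which is near 1 when UMIs are scattered independently. Over features of at least 10 CPM its median was 1.02 in each class, and its 99th percentile was 1.61 in A and 1.42 in B. Over features of 1 to 10 CPM, the 99th percentile was 1.22 in A and 1.20 in B. Cxcl10 reached 4.62 in A and 1.06 in B. Ccl2 reached 3.05 in B and 1.12 in A. Without the 1 cell of most UMIs, an alternative added after the data were seen, Cxcl10 in A stood at 2.63 and Ccl2 in B at 1.83. Cxcl5 stood at 2.82 in A and 1.42 in B, with up to 24 thinned UMIs in 1 A cell. The inducible attractant Ccl20 stood at 1.47 in A and 1.56 in B, and at 1.26 and 1.41 without its top cell. Cxcl1 stood at 1.51 in A and 1.81 in B. Without its top cell Cxcl1 was at 1.28 in A and at 1.16 in B, so its value in B rested on 1 cell. By contrast, Cx3cl1, Csf1 and Csf3 stayed between 0.996 and 1.08 in both. Csf2 was at 1.15 in B, and Cxcl16 at 1.01 in A and 1.11 in B.

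**Figure D3:**
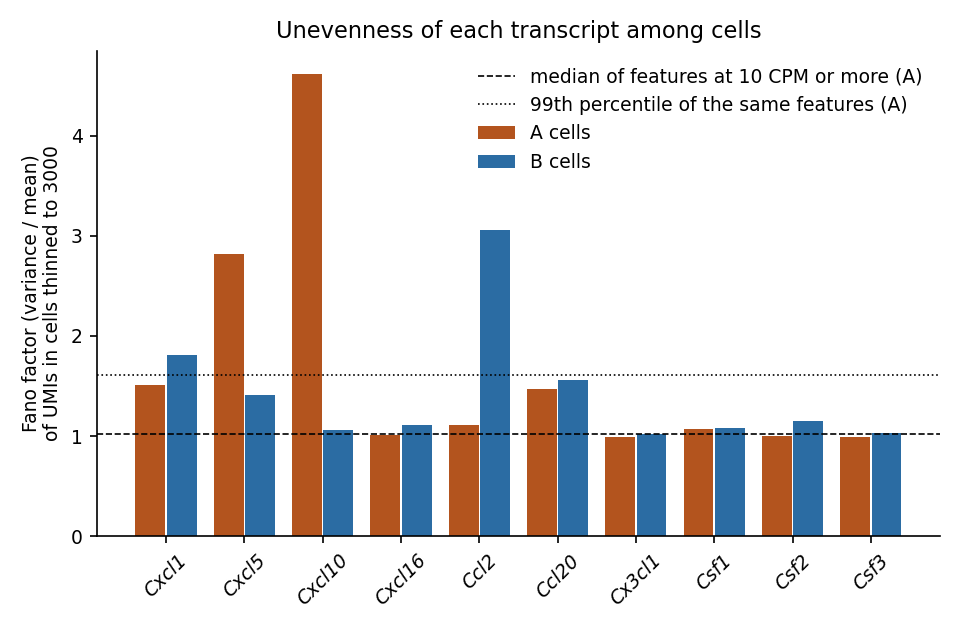
Fano factor of the UMI counts of each gene in cells thinned to 3000 UMIs, for A cells (orange bars) and B cells (blue bars), with lines at the median (dashed) and the 99th percentile (dotted) of A-cell features of at least 10 CPM. Cxcl10 and Cxcl5 in A and Ccl2 and Cxcl1 in B rise above the dotted line (Cxcl1 in B by 1 cell), and Cx3cl1, Csf1 and Csf3 stay at the dashed line.

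Cells with 5 or more UMIs of a rare chemokine were listed, a limit chosen after values were seen. For Cxcl1 there were 7 such cells, 2 in A, 1 in B and 4 in neither class, and 5 of the 7 held Ccl20. The B cell of 7451 UMIs held 18 of Cxcl1, 7 of Csf2, 5 of Ccl20 and 4 of Cxcl10, with 9 of Cxcl2 and 12 of Nfkbia, the NF-kB inhibitor that NF-kB itself induces. It alone held 9 of the 11 Cxcl2 UMIs of class B. The first A cell, of 9664 UMIs, held 11 of Cxcl1, 8 of Ccl20 and 8 of Cxcl5, with 5 of Cxcl3 and 7 of Nfkbia. The second, of 6737 UMIs, held 11 of Cxcl1, 4 of Cxcl5 and 2 of Ccl20, with 4 of Cxcl3 and 3 of Cxcl2 but only 1 of Nfkbia. Among the cells of neither class, 1 with 5 Cxcl1 UMIs held 19 of Nfkbia, 4 of Ccl20, 5 of Cxcl3 and 5 of Cxcl2. Another held 11 of Cxcl1, 10 of Cxcl3 and 4 of Csf2 but 1 of Nfkbia and none of Ccl20. The next had 5 of Cxcl1 with 1 of Nfkbia and no Ccl20. The last had 5 of Cxcl1, 15 of Cxcl5 and 2 of Ccl20 with no Nfkbia. All 7 held keratin UMIs and none of the macrophage (Cd14 apart) or lymphocyte markers, and Scrublet marked the last as a likely doublet. Of the 13 cells with 5 or more Ccl20 UMIs, 3 held Cxcl1 and 10 did not (2 of 3 in A, 7 of 9 in B and the 1 in neither class). Over all cells of the class, a Cxcl1 UMI was present in 3.33% of A cells and 2.54% of B cells as counted.

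The cells with 5 or more UMIs of Cxcl10 or of Ccl2 were none of those listed so far. However, the B cell with 18 Cxcl1 UMIs held 4 of Cxcl10, the most in any B cell. The 4 A cells with 5 or more Cxcl10 UMIs had no Cxcl1 or Ccl20. Of all A cells as counted, 3.33% held Cxcl1 and 1.51% held Ccl20, so nothing is read from that absence. In those 4 cells, interferon-response genes (13 of the fixed list, without Irf1) stood at 619 CPM (367 to 979). They stood at 533 CPM (402 to 694) in the 18 A cells with 1 to 4 Cxcl10 UMIs. A cells without Cxcl10 had 145 CPM (141 to 149). In B cells those genes stood at 58.8 CPM (37.7 to 87.5) with Cxcl10 and 79.7 CPM (77.3 to 82.1) without it, and whether the classes differ in this was not tested. Among the 18 A cells, 1 cell held 30 of the 55 interferon-gene UMIs. The 7 B cells with 5 or more Ccl2 UMIs, led by cells with 16, 15 and 10, had no Cxcl1 either, and 5 of them held Nfkbia. Of all B cells as counted, 2.54% held Cxcl1. Nfkbia stood at 54.2 CPM over all B cells, and these 7 cells held 3873 to 9752 UMIs each. Nothing is read from either count.

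Co-detection was counted in thinned cells as the number with UMIs of both genes over the number that the separate shares give within 10 strata of depth, for genes present in at least 100 cells of a class. In A cells 5 of the genes and 10 pairs could be counted. Cxcl1 and Cxcl5 were found together in 105 cells against 75.9 from their shares, a ratio of 1.38 (1.13 to 1.68). The other 9 pairs had limits that held 1. In B cells 7 genes gave 21 pairs, and the limits of all 21 held 1. Cxcl1 met Csf2 in 5 cells against 1.69, a ratio of 2.96 (0.962 to 6.92) that ran from 1.64 to 3.84 over 5 alternatives. Csf2 met Csf3 in 7 cells against 2.83, a ratio of 2.48 (0.995 to 5.10) that ran from 1.25 to 2.95. For most pairs the data thus showed no joint presence beyond the shares at this depth, with limits as wide as those.

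**Figure D4:**
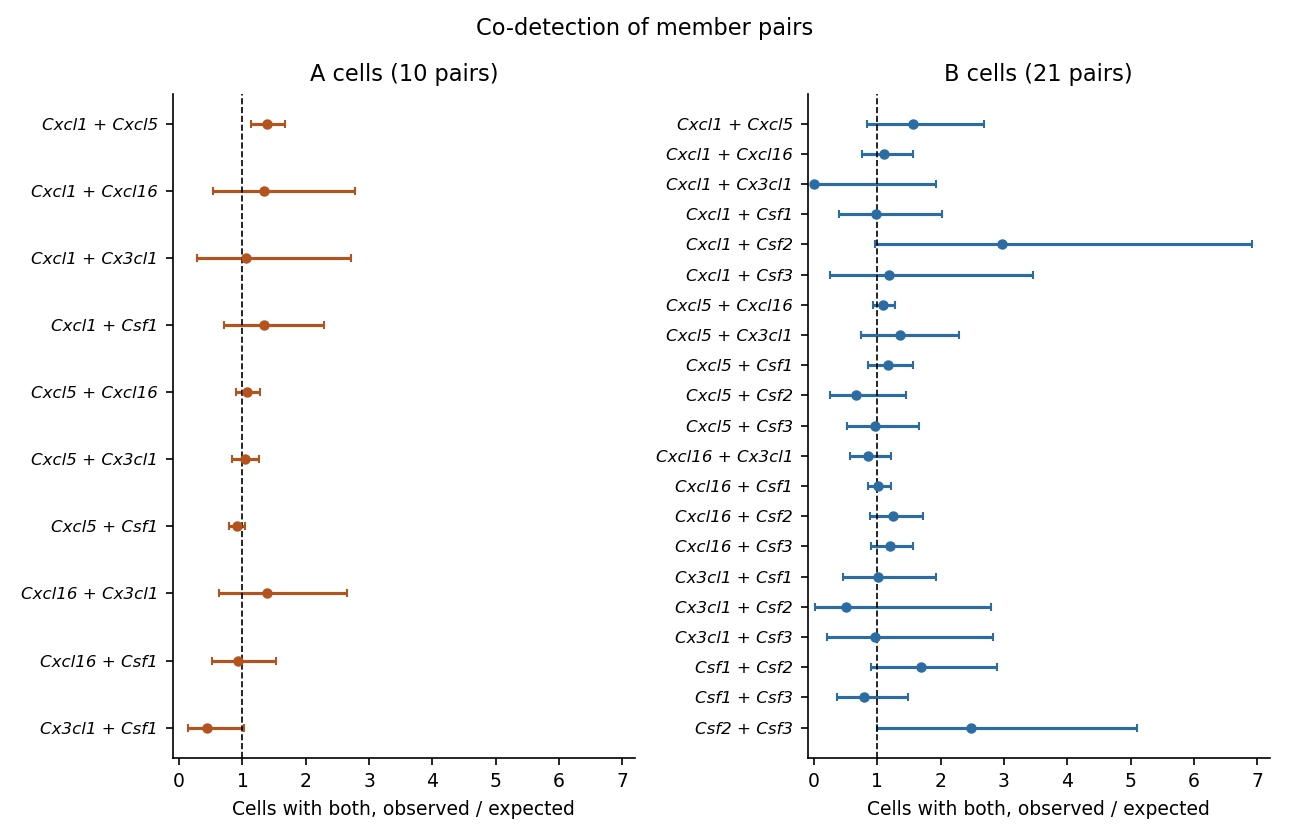
Cells with UMIs of both genes over the number given by their separate shares, for each pair in A cells (left) and B cells (right), with bars for exact 95% Poisson limits and a dashed line at 1. In A cells the bar of Cxcl1 with Cxcl5 clears the line, and in B cells every bar reaches it.

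At least 3 of the 10 genes were present in 55 thinned A cells and 72 thinned B cells, where their separate shares give 35.7 and 44.2. At least 2 were present in 617 A cells (597.7 from the shares) and 588 B cells (541.9 from the shares). The numbers from the shares were taken within the same 10 strata of depth, and all of these counts are a description.

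The same count with the genes of the fixed lists gave 255 pairs in A, of which 12 had limits above 1 and 4 below, and 371 pairs in B, of which 19 had limits above 1 and 2 below. Cxcl5 with Cxcl3, of the same chromosomal run, lay above 1 in both classes: 561 A cells held both against 402 (ratio 1.40, 1.28 to 1.52), and 34 B cells against 11.5 (ratio 2.96, 2.05 to 4.14). Cxcl1 with Cxcl3 met in 31 A cells against 15.9 (ratio 1.95, 1.32 to 2.76). In B cells, Cxcl1 met Nfkbia in 34 cells against 15.9 (ratio 2.14, 1.48 to 2.99) and the NF-kB feedback gene Tnfaip3 in 16 against 7.04 (ratio 2.27, 1.30 to 3.69). In A cells, Cxcl1 with Nfkbia gave 28 cells against 20.6 (ratio 1.36, 0.905 to 1.97). Csf2 with Nfkbia gave 29 B cells against 17.8 (ratio 1.63, 1.09 to 2.35). These pairs were singled out after their values were seen. Over 18 NF-kB factors and feedback genes in B, the limits lay above 1 for 4 with Cxcl16, 2 with Cxcl1, 2 with Csf1, 1 with Csf2, 1 with Cxcl5 and 0 with Csf3 or Cx3cl1. Over 16 such genes in A, they did so for 2 with Cx3cl1 and for 0 with Cxcl1, Cxcl5, Cxcl16 or Csf1. Over 10 immediate early genes in A, they did so for 3 with Cxcl16, 2 with Cxcl1, 1 with Csf1 and 0 with Cxcl5 or Cx3cl1. Over 11 in B, they did so for 2 with Cxcl1, 1 each with Cxcl16, Csf1 and Csf2, and 0 with Cxcl5, Csf3 or Cx3cl1. Limits above 1 were thus not particular to the NF-kB genes. Cxcl16 was present in 2082 thinned B cells and Cxcl1 in 116, so the limits differ in width and these counts are not compared between genes.

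Pearson correlations of the log-scaled thinned counts, taken over 7406 A cells or 8827 B cells of the same library, were low for the 5 genes in A and 7 in B that could be paired, and are given as a description only. Over the 10 pairs in A they ran from -0.032 to 0.067, and over the 21 pairs in B from -0.014 to 0.040. Against all features of at least 50 CPM, Cxcl5 in A cells was most like Gm5886 (r = 0.24), Sult1c2 (0.16) and Fabp5 (0.16). Csf1 in A was most like Sorbs2 (0.11), Tm4sf1 (0.10) and Ankrd1 (0.087). Cxcl16 was most like Serpinb1a (0.096), Nupr1 (0.089) and Malat1 (0.088) in A, and like Malat1 (0.094), Gsto1 (0.094) and Crip1 (0.084) in B. The feature most like Cxcl1 was Cxcl5 in A (0.067) and Nfkbia in B (0.077), and that most like Csf2 in B was Dynap (0.063).

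Within the classes, 3 splits by known markers of these cells were made after values were seen. In A, 1729 thinned cells with S100g or Epcam and neither Tnc nor Acta2 were set against 1637 with the reverse. Cxcl5 stood at 521 CPM in the S100g/Epcam cells and 321 CPM in the Tnc/Acta2 cells, a ratio of 1.62 (1.53 to 1.73). Cx3cl1 (12.3 and 5.09 CPM, ratio 2.42, 1.51 to 4.02) and Ccl20 (8.10 and 3.46 CPM, ratio 2.34, 1.30 to 4.38) were also higher in the S100g/Epcam cells. Csf1 went the other way, with 14.3 CPM in the S100g/Epcam cells and 36.0 CPM in the Tnc/Acta2 cells, a ratio of 0.396 (0.298 to 0.522). Csf1, at nearly the same level in A and B, thus differed between these cells of A. The 4040 thinned A cells in neither set had Cxcl5 at 345 CPM, Cx3cl1 at 8.09 CPM and Csf1 at 20.2 CPM. Ccl20 stood there at 2.31 CPM (1.54 to 3.34), with limits that overlapped those of the Tnc/Acta2 cells (2.02 to 5.54). Of the 10 genes 4 reached 10 CPM in this split, and 2 of them, Cx3cl1 and Csf1, differed at least 2-fold, as did 2.47% of 8629 features. Cx3cl1 reached 10 CPM in the S100g/Epcam cells alone, so nothing is read from the count.

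In B, 765 thinned cells with Krt14 or Sprr1a, keratinocyte genes, and none of Areg, Btc and Cftr were set against 4722 with the reverse. Ccl2 stood at 10.5 CPM in the Krt14/Sprr1a cells (24 UMIs) and 1.34 CPM in the others (19 UMIs), a ratio of 7.80 (4.09 to 15.1). The UMIs lay in 17 cells (2.22%) and 18 cells (0.381%), with no more than 4 in any. The 3340 thinned B cells in neither set held more Ccl2 UMIs than both sets together, 75 in 48 cells (7.49 CPM, 5.89 to 9.38), 13 of them in 1 cell. Ccl20 (ratio 2.47, 1.23 to 4.71), Csf1 (1.81, 1.38 to 2.35) and Cxcl16 (1.57, 1.37 to 1.78) were higher in the same cells than in the Areg/Btc/Cftr cells, while the limits for Cxcl1, Cxcl5, Csf2 and Csf3 held 1. In the 3340 cells of neither set Ccl20 stood at 6.99 CPM (5.45 to 8.83), within the limits of the Krt14/Sprr1a cells (6.10 CPM, 3.34 to 10.2). Of 4 genes of at least 10 CPM, Ccl2 differed 2-fold here, as did 1.14% of 8243 features. It reached that minimum in the Krt14/Sprr1a cells alone, so nothing is read from the count. When B cells were split by a UMI of Cdkn1a, the cell-cycle inhibitor p21, Csf2 stood at 12.4 CPM in 593 cells with it and 4.57 CPM in 8234 without it, a ratio of 2.70 (1.63 to 4.30). Csf2 UMIs lay in 19 of the former and 106 of the latter. Of 4 genes of at least 10 CPM, Csf2 differed 2-fold, as did 0.38% of 8168 features. It reached that minimum in the Cdkn1a cells alone, so nothing is read from this count either. Ccl2 gave a ratio of 0.487 (0.131 to 1.28).

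**Figure D5:**
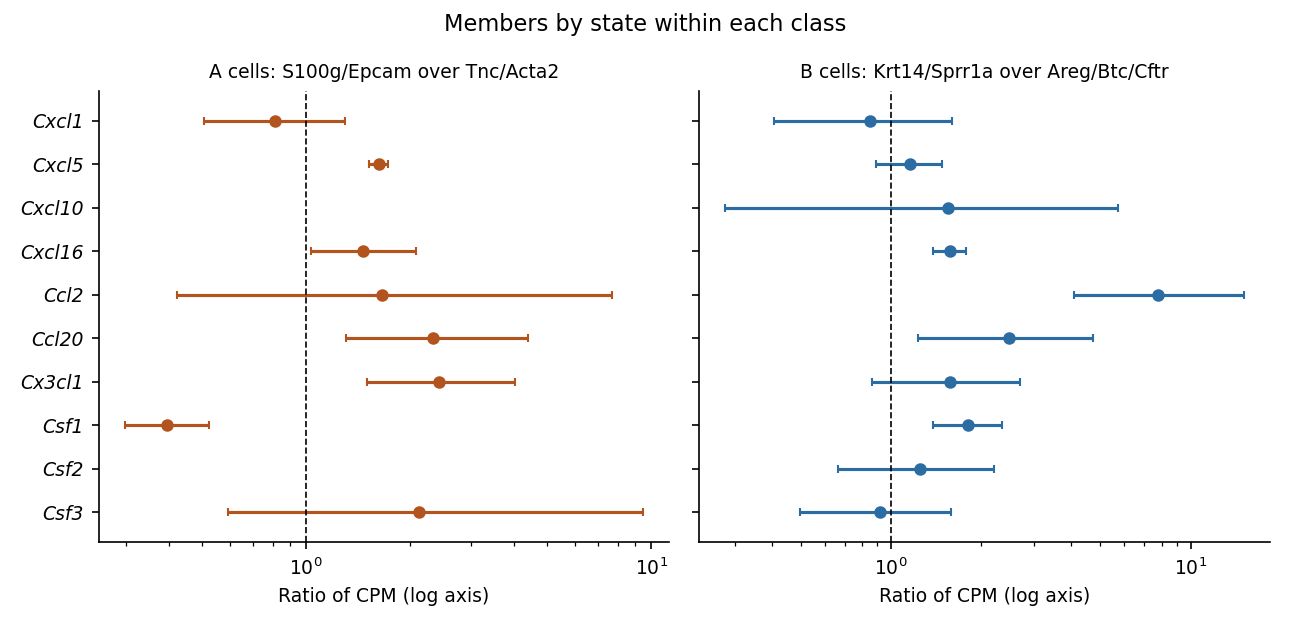
Ratio of CPM (log axis, exact 95% limits) of each gene between cell states in thinned cells, for S100g/Epcam over Tnc/Acta2 cells in class A (left) and Krt14/Sprr1a over Areg/Btc/Cftr cells in class B (right). Csf1 lies left of the dashed line at 1 in A and right of it in B, and Ccl2 stands at 7.80 in B. Not drawn in A, for too few UMIs, are Cxcl10 (1 and 8 UMIs, ratio 0.118, 0.00267 to 0.883) and Csf2 (2 and 0 UMIs).

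Other genes of the pathway were read from lists. Of 30 other chemokines, 2 reached 10 CPM: Cxcl3, above, and Ccl25 (43.3 CPM in A, 21.8 CPM in B), an attractant of gut-homing lymphocytes, which fell just short of the 2-fold limit. Another 11 had no UMI in either class. Of 22 receptors and decoy receptors, 0 reached 10 CPM and 9 had no UMI. The highest in B was the decoy receptor Ackr3, at 9.10 CPM against 0.745 CPM in A, and the highest in A was Cx3cr1, the receptor of Cx3cl1, at 1.89 CPM against 2.79 CPM in B. Cxcr2, the receptor of Cxcl1 and Cxcl5, had 10 UMIs in A and 21 in B, and Csf1r had 2 and 3.

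Of 19 related cytokines and growth factors, 8 reached 10 CPM. Tgfb2 (18.5 and 1.88 CPM) and Vegfa (40.0 and 17.1 CPM) were at least 2-fold higher in A and Il34 in B, while Mif was the most abundant (1761 and 1031 CPM). Of 22 NF-kB factors and feedback genes, 17 reached 10 CPM, with none called in A and 2 in B: Tnfaip3 (3.005 and 21.5 CPM) and Tnfaip2 (20.6 and 98.8 CPM). The median log2 ratio of those 17 was -0.18, against 0.17 over all 8800 features. Nfkbia itself differed little, at 49.6 CPM in A and 54.2 CPM in B, 1.09-fold higher in B (1.03 to 1.16). Of 12 immediate early genes, 10 reached 10 CPM: Fosl1 (9.36 and 79.0 CPM), Fos (3.90 and 23.0 CPM), Junb (67.7 and 254 CPM) and Ier3 (84.2 and 250.2 CPM) were higher in B. Jund, the most abundant of the list in A but not in B, was higher in A (305 and 131 CPM). These list counts stand beside the 10.3% (higher in A) and 7.26% (higher in B) of all 8800 features. Some listed genes, among them Tnfaip3, Fos, Fosl1, Tgfb2, Il34 and Ifit2, reached 10 CPM in their higher class alone, so nothing is read from the counts. Of 14 interferon-response genes 3 reached 10 CPM, and Ifit2 (11.2 and 2.07 CPM) was higher in A.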

How the data were processed

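Per the submitters' processing notes, the deposited matrix was made with Cell Ranger 8.0.1 and the build GRCm39; the annotation and any filter by the authors are not given in the sources used here. The deposited values are whole-number UMI counts per feature and barcode, not normalized. From these counts, UMIs were summed per class and scaled to CPM. Python 3.11.15, numpy 2.4.6, scipy 1.17.1 and pandas 2.3.3 were used, with Scrublet in scanpy 1.11.5 (expected rate 0.08), which marked 778 of 21361 cells. Marked cells were kept in the values of the report and left out as an alternative. Shares, Fano factors, co-detection and state splits used cells thinned at random to 3000 UMIs, except where a share is given as counted. Ratio and co-detection steps were tested on simulated data, and the steps that give the limits were not.

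The 10 genes, the gene lists and the class rule were chosen with earlier results of these data known. Genes named besides the 10 were the list genes of at least 10 CPM in either class and at least 2-fold difference (up to 4 per list), the most abundant gene of a list, the 3 features most correlated with a gene, and the 3 most extreme features outside the rule in each direction. Receptors, chromosomal neighbours, single cells with 5 or more UMIs and pairs singled out were named after their values were seen. Gene order came from RefSeq, and overlaps from GENCODE M21 by gene symbol.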

Additional observations from a re-analysis of the deposited data

Results flagged for a closer look

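The 4609 kept cells in neither class enter no comparison above, yet held UMIs of all 10 genes, each above what a count of 0 allows (0.133 CPM). Of them, 3966 had under 2 UMIs of either marker set and 643 had markers of both sets. Cxcl5 stood at 208 CPM and Cxcl16 at 40.9 CPM in these cells, both between the levels in A and in B. Csf1 stood at 24.1 CPM, Cxcl1 at 9.55 CPM, Cx3cl1 at 6.66 CPM and Ccl20 at 4.396 CPM. Csf3 stood at 3.24 CPM, Csf2 at 1.91 CPM, Ccl2 at 1.86 CPM and Cxcl10 at 0.888 CPM. Scrublet marked 9.20% of these cells, against 1.87% of A cells and 2.33% of B cells. Their median depth was 4325 UMIs.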

How the results depend on the processing

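The alternatives tried were looser and stricter limits on cells, a strict class rule, marked doublets left out, cells thinned, per-cell means, totals without mitochondrial UMIs, the top 1% of cells by a gene left out, other minimum levels and another thinning depth. The number of the 10 called in either direction was 2, and 5 with a minimum of 1 CPM, which was chosen after seeing the data. The summed level of the 10 in A cells was 422 CPM, and 384 with the strict filter, 440.5 with the strict class rule, 439 thinned, 439.9 as per-cell mean, 436 without mitochondrial UMIs and 372 without the top 1% of cells. In B cells it was 187 CPM, and 203, 193, 177, 176 and 151 with the strict filter, the strict class rule, thinning, per-cell means and the top 1% left out. The share of cells with any of the 10 was 57.5% in A, 59.0% with the strict class rule and 47.6% at 2000 UMIs. In B it was 37.8%, and 40.2% with the strict filter, 39.1% with the strict class rule and 27.5% at 2000 UMIs. The cause was not tested. The co-detection of Cxcl1 with Cxcl5 in A ran from 1.33 to 1.45 over 5 alternatives, with limits above 1 in each.

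The sign of the log2 ratio changed for Cxcl10 (-0.35 with the strict filter, -0.24 with the strict class rule) and Csf1 (-0.09 with the strict class rule), and for none of the other 8. Cxcl10, Ccl2, Csf2 and Csf3 gave no ratio with the top 1% of cells left out, because a class then held no UMI. No paired analysis was possible because there is 1 library. Genes present in under 100 thinned cells of a class were not paired. With the top cell of each gene left out, which was added after seeing the data, the Fano factor of Cxcl1 in B fell below the 99th percentile of features of its level.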
